A study of Mus musculus with 14 samples.

Results

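The stretch of mouse chromosome 4 described here runs from 88450000 to 89050000 (600 kb, build mm9) and was set to hold Mir31, Mtap, Cdkn2a and Cdkn2b. In the deposited list of SOX10 ChIP regions from PY230 tumors, 30 of 7929 regions overlapped it, and the other 805 regions of chromosome 4 lay outside. The interval was chosen by the positions of regions in this same list, among them 2 known runs of many neighbours. The number, spacing, width and signal of regions in it are therefore given as a description, without a test. PY230 is a mouse mammary tumor line, whose cells were transplanted into syngeneic mice and sorted from the resulting tumors (C57BL6J strain, adult stage, per the labels). Cells for the 2 SOX10 ChIP samples carried SOX10 with an AVI tag and BirA, the ligase that puts biotin on that tag, so the factor pulled down was an introduced, tagged SOX10. The 1 control sample went over the same streptavidin beads, and the labels do not say which of the constructs its cells carried. The list is 1 result for both ChIP samples against the control. It therefore carries no spread between samples, and the number of separate tumors behind it is not given in the sources used here. The list gives no library totals, so the depth is unknown and no interval was computed.

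This locus is best known for its brakes on cell division. Cdkn2a encodes 2 unrelated proteins from alternative first exons, the cyclin-dependent kinase inhibitor p16Ink4a and p19Arf, which stabilises p53 by binding Mdm2. Cdkn2b encodes p15Ink4b, a close relative of p16Ink4a, and both keep the retinoblastoma protein active by inhibiting the kinases that pair with D-type cyclins. Mtap encodes methylthioadenosine phosphorylase, which salvages adenine and methionine, and it is often lost together with CDKN2A in human tumors. Mir31 encodes miR-31, a microRNA studied in breast cancer metastasis. SOX10 itself is a transcription factor with an HMG box that bends DNA.

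In the RefSeq gene table of GRCm38.p6, the members stand in the order Mir31, Mtap, Cdkn2a, Cdkn2b. The type I interferon genes, which encode antiviral cytokines, come before Mir31 and end with Ifne. Dmrta1 is the next protein-coding gene after Cdkn2b. Between Mir31 and Mtap the table lists 3 genes, the long non-coding RNAs Gm34568, Wincr1 and Gm12602. Between Mtap and Cdkn2a it lists 3 more (Gm12607, Gm26490 and Tgif2-ps1), none of them protein-coding. Between Cdkn2a and Cdkn2b it lists 1, the long non-coding RNA Gm12610. That table is of another build than the region list, so genes were used by their order only. Which region lies in or beside which gene, including whether Cdkn2a itself carries one or whether the runs lie between the interferon genes and Mtap, was not determined here.

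Both mature products of Mir31 are shown because they identify the only microRNA among the members. Sequences are from RefSeq (GRCm38.p6, minus strand), 5′ to 3′, with the seed (bases 2 to 8) in capitals.
mmu-miR-31-5p: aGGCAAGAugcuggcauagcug
mmu-miR-31-3p: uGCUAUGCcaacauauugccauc
The seeds GGCAAGA and GCUAUGC differ from each other, and each belonged to 1 of the 1679 mature names in the table.

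Promoter sequence was searched for the core letters that SOX proteins prefer, ACAAAG and ACAATG, on both strands in the 250 bases before each start. 3 of 4 members were in the RefSeq promoter table (GRCm38.p6), with 4 starts among them. A match was present before 1 of the 4 starts, against 25.2% of all 32851 starts in the table. It was an ACAAAG that began 173 bases before the start of Mtap. The bases before both Cdkn2a starts and before the Cdkn2b start held neither motif in this window. The Mtap sequence (plus strand) is shown for its match, in capitals, and that of the upstream Cdkn2a start (minus strand), where the p19Arf transcript begins, for its base composition.
Mtap: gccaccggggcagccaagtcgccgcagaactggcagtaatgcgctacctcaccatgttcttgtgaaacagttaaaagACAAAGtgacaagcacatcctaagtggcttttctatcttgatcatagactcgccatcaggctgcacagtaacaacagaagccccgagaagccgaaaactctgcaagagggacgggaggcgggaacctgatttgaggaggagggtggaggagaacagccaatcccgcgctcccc
Cdkn2a, upstream start: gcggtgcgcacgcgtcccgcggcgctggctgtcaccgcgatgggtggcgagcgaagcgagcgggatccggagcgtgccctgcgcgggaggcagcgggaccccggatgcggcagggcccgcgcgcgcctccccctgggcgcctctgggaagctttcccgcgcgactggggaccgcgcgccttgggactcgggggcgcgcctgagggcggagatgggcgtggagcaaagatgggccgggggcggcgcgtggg
The GC content was 54.4% before Mtap and 78.4% before the upstream Cdkn2a start. It was 60% before the downstream Cdkn2a start, 53.6% before Cdkn2b and 52.4% in the median over all starts. A match of letters is a description of the sequence, and whether a listed region covers any of these promoters was not determined.

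SOX10 ChIP regions filled the interval unevenly. Divided into 6 parts of 100 kb, it held 0, 9, 12, 0, 4 and 5 regions in order of rising coordinate. The parts with 9 and 12 regions had 15.4% and 18.8% of their length covered by regions, against 2.65% and 3.55% in the last 2 parts. Gaps of over 50 kb between neighbouring members numbered 4 and made up 54.2% of the interval. The longest was 122 kb, between 88741430 and 88863573. Before the first member lay a further 113 kb of the interval with none.

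**Figure D1:**
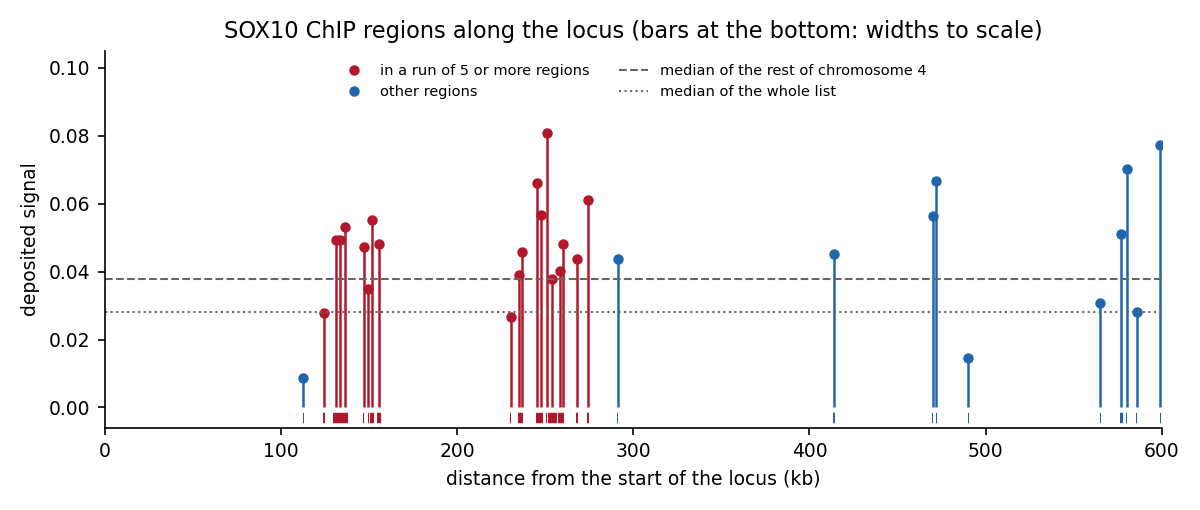
Deposited signal of the 30 regions (vertical axis) against distance from the start of the interval in kb (horizontal axis), with region widths drawn to scale below the axis and dashed and dotted lines at the medians of the rest of chromosome 4 (0.0377) and of the whole list (0.0280). The 19 regions in runs of 5 or more (red) stand in 2 groups between 124 and 275 kb, and the highest signal, 0.0807, is in the second of them.

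The runs of 5 or more regions, in which each gap to the next region was under 10 kb, held most of the covered length (82.7%). Their median signal was close to that of the other members, 0.0480 against 0.0452. The first run held 8 regions from 88573736 to 88606858 (33.1 kb), and 45.6% of its span was covered. The second held 11 regions from 88680083 to 88725015 (44.9 kb), of which 40.8% was covered. They were separated by 73.2 kb without a listed region. Together they held 19 of the 30 members (63.3%) on 13.0% of the interval. Runs of 5 or more held 4.43% of the whole list and 9.94% of the rest of chromosome 4, but the known runs were part of the choice of this interval, so nothing is read from that difference.

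The signal has no stated unit, but signal times width came out as whole multiples of 1 step in 99.9% of the 7282 regions under 1500 bp with a signal above 0 (within 0.05 of a whole number). In 39.2% of them the multiple was also a multiple of 54, as if reads of 54 bases had been summed. Dividing by both gives a value in read equivalents, which is a reading of the deposited numbers and not a count made by the authors. In these units the whole interval summed to 739, of which the first run held 286 (38.6%) and the second 329 (44.5%). The median member had 16.7 read equivalents (quartiles 11.3 and 33.3), against 11.8 in the rest of chromosome 4 and 7.50 in the whole list. Members under 10 read equivalents numbered 7 of 30, or 23.3%, against 64.6% of the whole list and 41.1% of the rest of the chromosome. The median was 28.5 read equivalents for members in the 2 runs and 11 for the other members. For members under 1500 bp it was 12.8. The runs were known when the interval was chosen, so nothing is read from these differences.

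**Figure D2:**
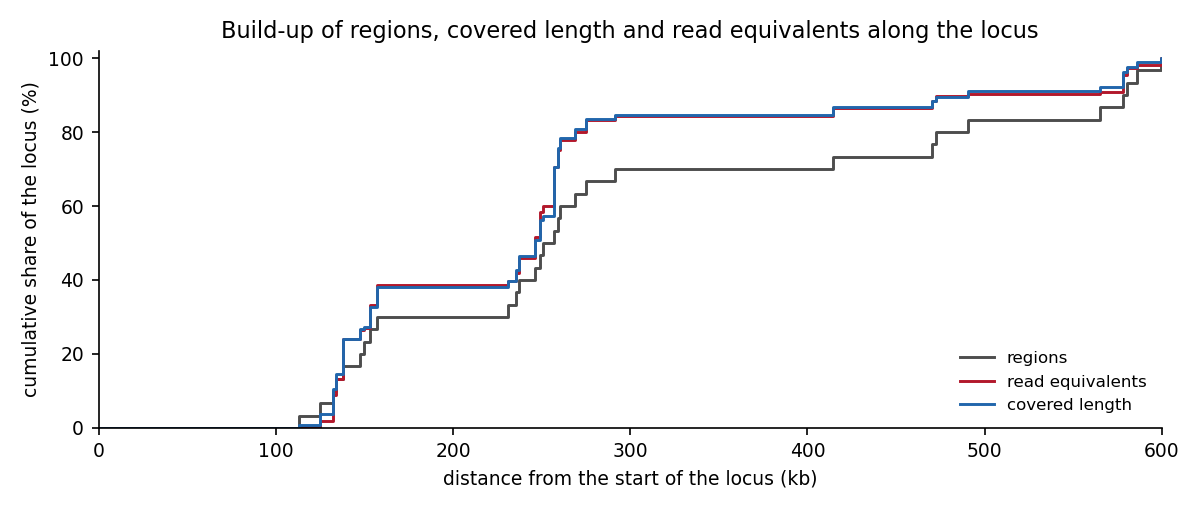
Cumulative share of the interval's regions, covered length and read equivalents in % (vertical axis) against distance from its start in kb (horizontal axis). All 3 lines climb within the 2 runs, which held 63.3% of regions, 82.7% of covered length and 83.1% of read equivalents.

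Within the first run, 3 wide regions stood almost end to end. They spanned 88579669 to 88582380 (2712 bp, signal 0.0494), 88582479 to 88584196 (1718 bp, signal 0.0492) and 88584325 to 88588135 (3811 bp, signal 0.0531). The gaps between them were 98 and 128 bp, and together they held 22.0% of the interval's read equivalents. The third of these had the most read equivalents of any member, 78.3. Later in the run, a region of 2185 bp from 88600873 reached the run's highest signal, 0.0551, and one of 2150 bp from 88604709 had 0.0482. A region of 1045 bp from 88596423 had a signal of 0.0472. The remaining 2 members of the run were weaker. The opening region from 88573736 had a signal of 0.0278 over 1193 bp, and the narrowest member of the interval, 297 bp from 88599534, had 0.0350 and 4.02 read equivalents.

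The second run rose and fell more in signal, from 0.0266 to 0.0807, than the first, from 0.0278 to 0.0551. Its core was a group of 6 regions from 88694820 to 88710588, whose neighbours were all under 2 kb apart and which covered 81.8% of that span. The first of the group had a signal of 0.0660 over 1684 bp, and the next, 74 bp away, 0.0565 over 2260 bp. A narrow region of 385 bp followed at 88700650 with the highest signal of the interval, 0.0807, which was rank 8 of chromosome 4 and rank 106 of the list. It held 12.02 read equivalents. Right behind it came the widest member, 5341 bp from 88701446, with a signal of 0.0377 but 77.9 read equivalents. The group closed with regions of 2152 bp (signal 0.0403) and 1076 bp (0.0480). Of the 5 other members of the run, 3 lay before the core, with signals of 0.0266, 0.0391 and 0.0457, and 2 after it, with 0.0436 and 0.0611.

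Outside the runs lay 11 regions, narrower but not uniformly weaker. Their median width was 535 bp (quartiles 443 and 685), against 1612 bp in the runs (quartiles 1037 and 2169). Their median signal was 0.0452 (quartiles 0.0295 and 0.0615), against 0.0480 in the runs (quartiles 0.0397 and 0.0541), so the signal ranges overlapped widely. The weakest member of the interval was its first, from 88562567 to 88562866, with a signal of 0.00861 that amounts to 1.00 read equivalent. A single region followed the second run at 88740924 (signal 0.0438). Another stood alone at 88863573 (signal 0.0452, 15 read equivalents), 122 kb beyond its predecessor and 55.3 kb before its successor.

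The rest of the interval held small groups. A pair of narrow regions stood 1539 bp apart, from 88919712 to 88920342 (signal 0.0564) and from 88921882 to 88922308 (0.0666), with 13.8 and 11.0 read equivalents. The next region, 17.5 kb on, from 88939851 to 88940589, was the second weakest of the interval (0.0147, 4.20 read equivalents). After 74.3 kb came a region of 368 bp at 89014871 (0.0308). A run of 3 followed from 89026300 to 89035946, with signals of 0.0512, 0.0703 and 0.0282. Its first member, at 1638 bp, was the only one outside the runs of 5 or more that reached 1500 bp. The last member, from 89048976 to 89049434, had the second highest signal of the interval, 0.0774, in 459 bp and 13.7 read equivalents. It ended 566 bp before the edge of the interval.

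The regions nearest to the interval lay beyond gaps of the size also found within it or longer. Towards lower coordinates, the closest outside region ended at 88369964 (signal 0.0420), 193 kb before the first member. Towards higher coordinates, it began at 89133385 (signal 0.0479), 84.0 kb after the last member, a shorter gap than the 122 kb inside the interval. It opened a run of 5 regions that reached to 89154801, so the upper edge of the interval is not the end of the grouped regions. The window of 600 kb before the interval held 4 regions and the one after it 6, against 30 inside.

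Compared with the rest of chromosome 4, the members had a somewhat higher median signal. Only those in the 2 runs had a larger median width. The members were also denser, but the interval was chosen by the positions of regions in this list, so nothing is read from that. The interval held 50 regions per Mb, against 5.22 in the rest of the chromosome, and 6.74% of its length was covered, against 0.513%. The median signal of the members was 0.0476 (quartiles 0.0380 and 0.0561), against 0.0377 (0.0282 and 0.0480) for the rest of chromosome 4, a ratio of 1.26. For the whole list it was 0.0280, which made the ratio 1.70. Of the 30 members, 22 lay above the median of the rest of the chromosome. Members among the 10% of the list with the highest signal numbered 14, or 46.7%, against 10% of the whole list and 25% of the rest of the chromosome. No member was listed at a signal of 0, but such regions were rare elsewhere too. They numbered 3 of 805 in the rest of chromosome 4 and 65 of 7929 in the whole list.

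Members were wider in the median than the rest of chromosome 4 and than the whole list. The 2 runs were known when the interval was chosen, so nothing is read from the differences in width. Members spanned 297 to 5341 bp, with a median of 1037 bp (quartiles 539 and 1710), against 812 bp in the rest of chromosome 4 and 683 bp in the whole list. The larger median came from the 19 members in the 2 runs, at 1612 bp. The other 11 members, at 535 bp, had a smaller median width than the rest of the chromosome. Regions of 1500 bp or more numbered 11 of 30, or 36.7%, against 7.34% of the whole list and 15.2% of the rest of chromosome 4. Wide regions were not particular to the interval, since the stretch from 81850001 to 82450000 held 10 among its 29 regions. The 11 wide members had signals between 0.0377 and 0.0660, while the 19 narrower members ranged from 0.00861 to 0.0807. Both the weakest and the strongest members were thus narrow. Across the 30 members, which share libraries and partly lie in the same runs, Spearman's rho of width and signal was 0.125, and it was 0.196 over the rest of the chromosome.

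**Figure D3:**
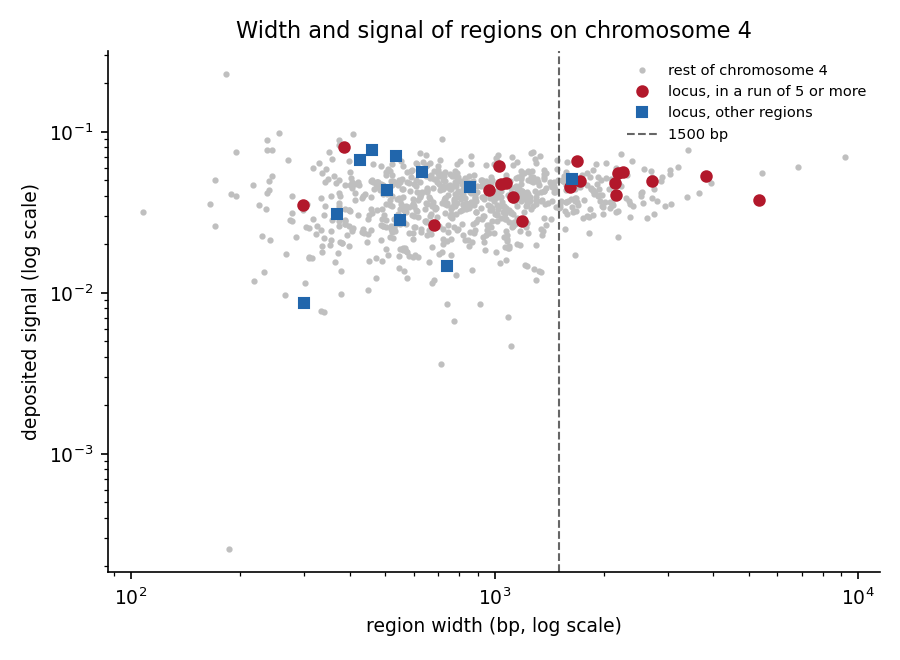
Deposited signal (vertical axis, log scale) against region width in bp (horizontal axis, log scale) for the interval's 30 regions (red circles in runs of 5 or more, blue squares otherwise) and the rest of chromosome 4 with a signal above 0 (grey). Of the 11 members right of the dashed line at 1500 bp, 10 belong to the runs.

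Laid end to end from the interval, 252 windows of 600 kb fitted on chromosome 4. The interval was chosen with its regions known, so its rank by number is a description only. The interval ranked first by number of regions, with 30, ahead of 29 in the window from 81850001 to 82450000, a difference of 1 region. Ranks 3 and 4 held 23 regions (from 32050001) and 20 (from 104650001), the median window held 1 (quartiles 0 and 5), and 97 windows held none. By covered length the order of the first 2 windows turned, with 40.4 kb in the interval and 47.6 kb in the window at 81850001, and by summed read equivalents too (739 and 926). Counting regions within 10 kb of each other once left the interval 10 units and rank 5. It shared this rank with the windows at 11050001, 40450001 and 106450001, and the window at 32050001, with 17 units, ranked 1. By median signal the interval ranked 3 of the 70 windows with 5 or more regions, and by median width 15.

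The rank depended on where windows began. With windows moved in steps of 10 kb, 10 of 15126 positions held more than 30 regions, and 19 besides the interval held 30. Of the 10 with more, 5 lay around the window at 81850001, between 81670001 and 82310000, with up to 31 regions. The other 5 overlapped the interval itself, between 88540001 and 89180000. The fullest window of the chromosome, from 88560001 to 89160000, was the interval moved by 110 kb towards higher coordinates, and it held 35. With windows laid from position 1, the interval was divided between windows of 24 and 15 regions, which ranked 2 and 10 of 258.

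**Figure D4:**
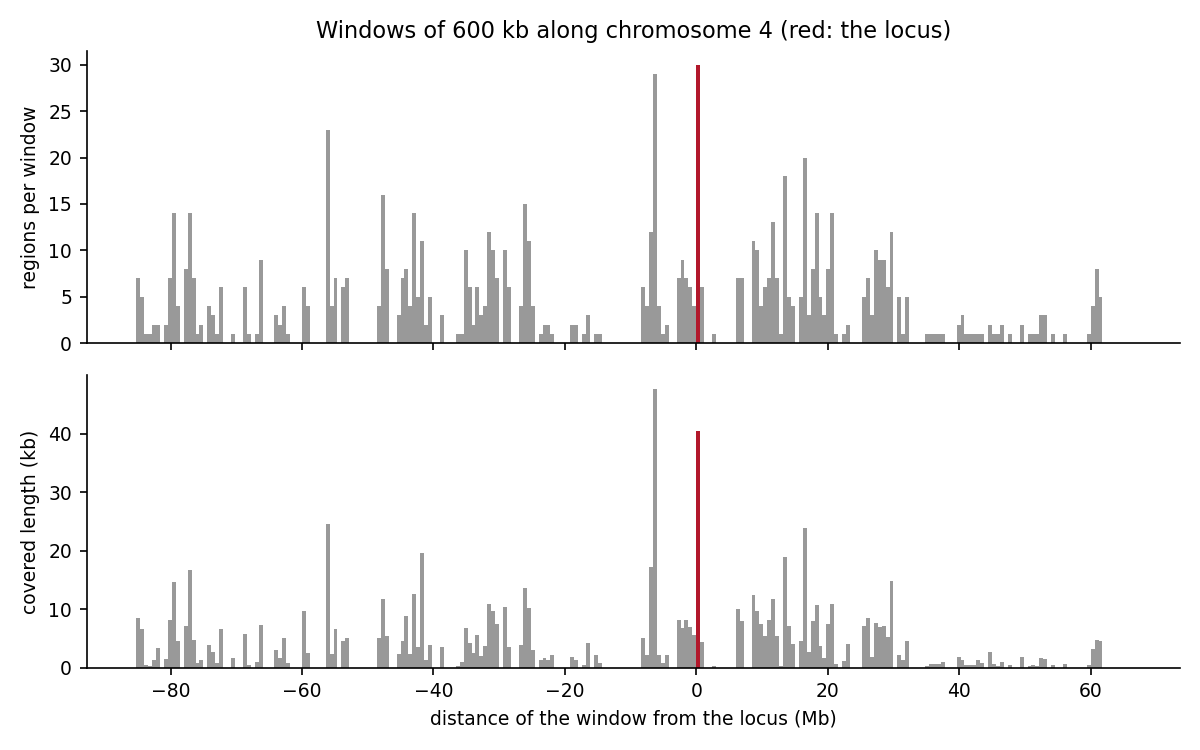
Number of regions (upper panel) and covered length in kb (lower panel) in windows of 600 kb along chromosome 4, against distance of the window from the interval in Mb (horizontal axis). The interval (red) is highest by number, at 30, and second by covered length, at 40.4 kb, after the window 6.6 Mb before it.

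Among the 56 runs of 5 or more regions in the whole list, both runs of the interval were large by covered length. Both were known when the interval was chosen, so their ranks are given as a description. The run of 11 regions covered 18.3 kb, rank 2, and the run of 8 covered 15.1 kb, rank 4, against a median of 5.18 kb. The run of 8 had a median region width of 1934 bp, rank 2 of the 56. The run of 11, at 1127 bp, had rank 15, and the median run had 874 bp. By median signal they ranked 13 and 18.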

How the data were processed

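ChIPmentation (ChIP with tagmentation on the beads) was done on PY230 tumor cells, with 2 SOX10 ChIP samples and 1 control among the 14 samples of the series. The other 11 samples were not analysed here. The deposited values are a signal per region in 1 pooled list, and the sources used here do not give its formula or threshold. Per the submitters' processing notes, mm9 was the build, and the tools named are MACS2 2.1.1, SAMtools 1.3.1, Bowtie 0.12.8 and FastQC. A region counted as a member with at least 1 bp of overlap, and starts are written 1-based. The step of the signal was searched for in regions under 1500 bp, and read lengths from 40 to 70 were tried. Windows, runs, widths and read equivalents were computed with Python 3.11.15, numpy 2.4.6 and pandas 2.3.3, and the functions were tested on simulated data. No statistical test was run, since the list has no replicates. The members and lists were chosen with earlier results of these data known. Regions named are the strongest, weakest, widest, narrowest, first and last, and all runs of 3 or more; the remaining ones were named after their values were seen. Cell cycle partners of the members (Cdk4, Cdk6, Rb1 and others) were not counted, because no gene positions of mm9 were used.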

Additional observations from a re-analysis of the deposited data

How the results depend on the processing

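No paired analysis was possible because both ChIP samples were pooled into 1 set of regions, and no library could be left out. Of the 30 regions, 14 were among the 10% of the list with the highest signal, and 10 units were left when regions within 10 kb were counted once. The rank among windows of chromosome 4, first in the main setting, was 11 with windows moved in steps of 10 kb, shared with 19 other positions. It was 2 with windows laid from position 1, 2 by covered length, 2 by summed read equivalents and a shared 5 by units within 10 kb. It was 1, shared with the window at 81850001, by number among the 50% with the highest signal. Regions in runs of at least 2 numbered 24 with gaps under 10 kb and 11 with gaps under 1 kb. The other alternatives stayed within 1.5 times the main value: 26 regions among the 50% with the highest signal, 30 by midpoint, 21 and 29 in runs with gaps under 5 and 20 kb, and median signals of 0.0438 to 0.0476. Without members under 10 read equivalents 23 regions were left, an alternative chosen after seeing the data. The unknown depth limits the ranking of single narrow regions, 7 of which rest on fewer than 10 read equivalents.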

Other observations

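Very short gaps in the interval lay within its large runs. Of 29 neighbouring pairs, 5 (17.2%) were less than 200 bp apart, against 5.28% of pairs on chromosome 4 and 2.98% in the whole list. All 5 were in the runs of 8 and 11 regions. These runs were known when the interval was chosen, so nothing is read from the difference in shares. The shares for chromosome 4 and the whole list also include the pairs of the interval. When regions with gaps under 500 bp were joined, an alternative chosen after seeing the data, the 30 members became 23 blocks. The block from 88700650 to 88710588, made of 4 regions in the run of 11, was then 9.94 kb long and the fourth widest of 7613 blocks in the list. The block from 88579669 to 88588135, made of 3 regions in the run of 8, was 8.47 kb long and the fifth widest. The median block of the list was 691 bp. Since the runs were known beforehand, the ranks of these blocks are given as a description. The list does not show whether such a block is 1 broad stretch of signal divided in calling or several sites.

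Over all chromosomes, 4206 windows of 600 kb could be laid. On chromosome 4 they began from the interval itself, and on the others from the first listed region. Only the interval was thus sure not to be divided between windows, and it ranked second by number of regions. With windows from position 1 of chromosome 4 it was divided between windows of 24 and 15 regions, so nothing is read from this rank. The first was a window on chromosome 11 from 117623535 to 118223534, with 31 regions.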
